A study of Mus musculus with 96 samples.

Results

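Stella, the protein encoded by Dppa3, is present at very different levels in individual mouse embryonic stem (ES) cells, and the comparison described here sets the 12 cells with the least Dppa3 mRNA (Stella-low) against the 12 cells with the most (Stella-high). The 24 cells were chosen by their measured Dppa3 level from 35 cells in which Gata6, a transcription factor of primitive endoderm, was below 20 reads normalised to the depth of the cell (counts per 1000000 counts, CPM). These 35 belong to a set of 48 single cells. Each cell was sequenced on 2 lanes, so the comparison uses 48 of the 96 deposited samples.

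Dppa3 is a maternal-effect gene of the early embryo. Its product binds chromatin and shields DNA methylation from loss by active conversion after fertilisation, and it restrains the maintenance methylation factor Uhrf1 in oocytes and ES cells. In serum cultures of ES cells the protein is found in a minority of cells, and these have been described as closer to the inner cell mass than Stella-negative cells, which have been described as closer to the epiblast. Dppa3 lies beside Nanog and Gdf3 in a cluster of genes used by pluripotent cells.

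All 48 cells were J1 ES cells, a single clonal mouse line, of passages 12 to 20. They were grown without feeder cells in medium with fetal bovine serum and leukaemia inhibitory factor (LIF). Both groups share this background and carry no treatment that distinguishes them. Cells were captured on a microfluidic chip, and cDNA was amplified on the chip from each cell. The labels name no separate cultures or capture runs, so the 48 cells count as 1 sample and no p-value or standard error is given. Differences are therefore described by size, by the spread over cells and by how far the groups overlap.

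Summed over lanes, Stella-low cells had between 5314485 and 9122261 reads in genes, and Stella-high cells between 4408953 and 8946317. A mean of 9051 genes had a read in Stella-low cells and 9002 in Stella-high cells. Over the 35 cells, Spearman's rho of Dppa3 with total reads was 0.018 and with the number of genes detected -0.032, as a description of cells for which no separate cultures are named. Ribosomal protein genes took 4.20% of reads on average in Stella-low cells and 4.43% in Stella-high cells. Of markers that bear on the label of naive pluripotent cells, Zfp42, Esrrb, Nanog, Pou5f1 and Sox2 had at least 1 CPM in 24 of 24 cells. The primitive endoderm genes Gata4, Sox17, Sox7 and Pdgfra, which the choice of cells did not use, reached no more than 0.939 CPM in any of them. Tcl1 and Klf4 of the preset naive markers and Dab2 of the preset endoderm markers are not part of this check. The check thus covers only the markers named, and levels of Dab2 are not given here. The wider primitive endoderm list summed to between 46.3 and 2034 CPM in Stella-low cells and between 248 and 557 CPM in Stella-high cells. Its sum was 15868 CPM or more in the Gata6-positive cells. Low levels of the named endoderm genes therefore do not describe the whole list.

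Dppa3 ranged from 0 to 60.2 CPM in the Stella-low cells, with a median of 31.7 CPM. Of these cells, 3 stood apart near zero, with 0, 0.156 and 0.188 CPM, and the next had 9.03 CPM. The 12 Stella-high cells ranged from 242 to 1026 CPM, with a median of 408 CPM. These values chose the groups and are no result. The selection cut a continuous range: the first cell above the Stella-low group had 61.2 CPM and the last below the Stella-high group had 229 CPM, with 11 cells between these bounds, called middle cells here. Gata6 separated the cells kept from those set aside by a wide gap, with 1.36 CPM in the highest cell kept and 82.8 CPM in the lowest of the 13 set aside. In those 13 Gata6-positive cells Dppa3 ranged from 0 to 222 CPM around a median of 0.812 CPM.

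**Figure D1:**
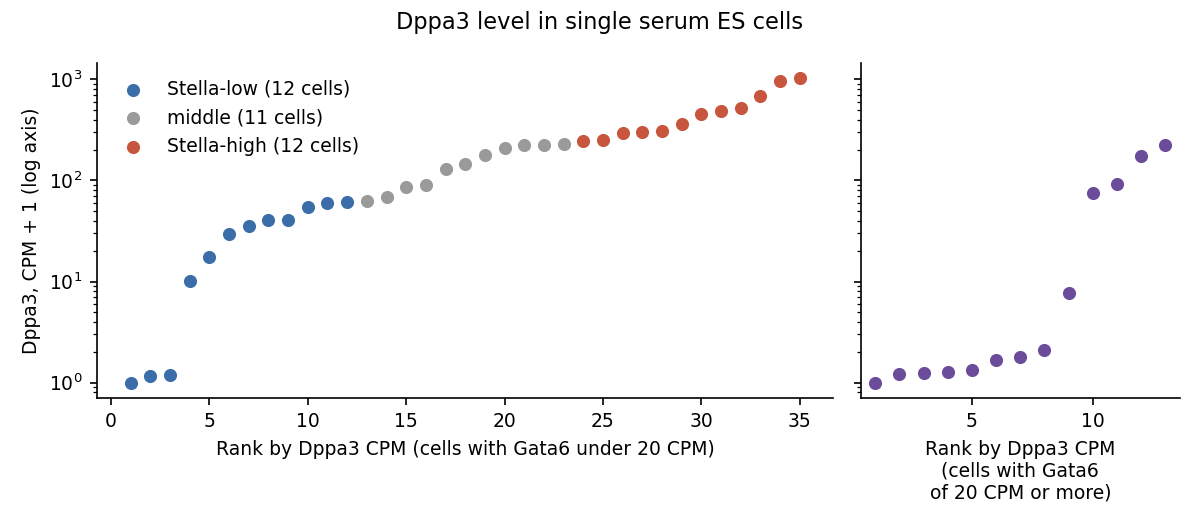
Dppa3 level (CPM + 1, log axis) of each cell against its rank, for the 35 cells with Gata6 under 20 CPM (left) and the 13 Gata6-positive cells (right). Apart from 3 cells near zero, the Stella-low, middle and Stella-high cells form one unbroken range, from 9.03 to 1026 CPM.

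Across the transcriptome, ratios between the Stella-low and Stella-high cells were centred on zero, with nearly equal numbers of genes lower and higher. The 11209 genes that averaged 10 or more reads a cell were compared as log2 of the ratio of mean CPM, with 1 CPM added to each mean, so that negative values mark genes lower in Stella-low cells. The median over all genes was 0.00. Of these genes, 1797 (16.0%) were at least 2-fold lower in Stella-low cells and 1820 (16.2%) at least 2-fold higher. Few of these genes were abundant: among the 2545 genes with a mean of at least 100 CPM in either group, 68 were at least 2-fold lower and 73 at least 2-fold higher.

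A narrower count asked also that the quartile ranges of the groups not overlap. It kept 81 genes lower (0.723%) and 68 higher (0.607%) in Stella-low cells. With a further demand, set after the values were seen, that the lower quartile of the higher group be at least 10 CPM, 44 genes were lower (0.393%) and 33 higher (0.294%); these are called well counted. No gene separated the groups completely, and Dppa3 itself was left out.

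The 11 middle cells, which entered neither group, allow the same genes to be read where the choice of groups did not use them. This look was added after the values were seen. Within the middle cells, Dppa3 varied from 61.2 to 229 CPM. Of the 81 genes lower in Stella-low cells with quartile ranges apart, 33 had a positive rank correlation with Dppa3 among the middle cells (40.7%, against 49.0% of all genes). Of the 68 higher in Stella-low cells, 31 had a negative rank correlation with Dppa3 there (45.6%, against 50.02% of all genes). For the well counted genes the shares were 43.2% and 51.5%. The genes that separated the outer groups followed Dppa3 in the middle cells about as often as any gene did. The middle cells span a narrower range of Dppa3 than the groups, and they are few.

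**Figure D2:**
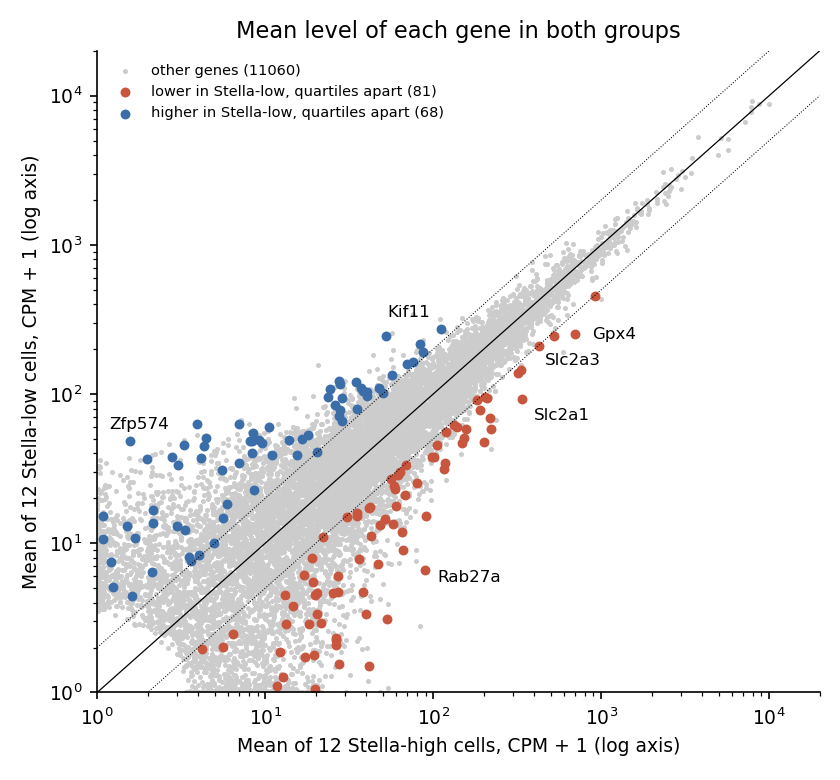
Mean level of each of 11209 genes in 12 Stella-high cells (horizontal) and 12 Stella-low cells (vertical), in CPM + 1 on log axes, with the line of equality and dotted lines at 2-fold. Genes past 2-fold with quartile ranges apart, 81 lower and 68 higher in Stella-low cells, are coloured, and most abundant genes lie between the dotted lines.

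Naive pluripotency genes were not lower as a group in Stella-low cells. Of the 22 genes of this list, 1 was at least 2-fold lower in Stella-low cells and 2 were at least 2-fold higher, below the shares of all genes, and none had quartile ranges apart. The median of the list was 0.22. Zfp42, the reporter gene Rex1 of naive cells, ranged from 551 to 3770 CPM around a median of 1864 CPM in Stella-low cells, and from 285 to 2968 CPM around 1459 CPM in Stella-high cells, a log2 ratio of 0.26. Esrrb, an orphan nuclear receptor of the naive network, ranged from 18.3 to 589 CPM with a median of 167 CPM in Stella-low cells and from 17.4 to 341 CPM with a median of 149 CPM in Stella-high cells, a log2 ratio of 0.56. Both groups overlapped over nearly their whole range for these genes. Among other members, the log2 ratio was 0.17 for Tcl1, 0.57 for Prdm14 and -0.69 for Klf4. Summed over the list, naive genes had a mean of 9214 CPM in Stella-low cells and 7146 CPM in Stella-high cells, with ranges from 7116 to 10975 CPM and from 3358 to 11272 CPM.

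The naive genes that passed 2-fold were Fgf4 and Gbx2, higher in Stella-low cells, and Pecam1, lower. Fgf4 encodes the growth factor through which naive cells stimulate their own ERK signalling. It ranged from 57.5 to 317 CPM around a median of 209 CPM in Stella-low cells, and from 0.224 to 189 CPM around 102 CPM in Stella-high cells. In all, 7 of 12 Stella-low cells lay above the highest Stella-high cell, and the log2 ratio was 1.01. The 3 cells with almost no Dppa3 had 265, 299.6 and 317 CPM of Fgf4, and without them the log2 ratio was 0.71, under 2-fold. Without the Stella-high cell with the most Dppa3 it was 0.88, also under 2-fold. Pecam1, an adhesion molecule of the inner cell mass, had medians of 3.85 CPM in Stella-low and 108 CPM in Stella-high cells, with ranges from 0.417 to 154 CPM and from 0.136 to 278 CPM. Its log2 ratio was -1.21, and -0.99 without the 3 cells near zero. Gbx2, a homeobox factor downstream of LIF, had medians of 1.52 and 0 CPM and rests on few cells. Its log2 ratio was 1.33, and 0.53 without the 3 cells near zero.

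Tbx3, a T-box factor of the naive network, shows how the measure of level matters. Its mean was 70.05 CPM in Stella-low cells and 87.1 CPM in Stella-high cells, a log2 ratio of -0.31. Its medians were 78.7 and 1.60 CPM, which give a log2 ratio of 4.94. Stella-low cells mostly had moderate Tbx3, with 10 of 12 cells at 1 CPM or more and a highest value of 137 CPM. In Stella-high cells 6 of 12 reached 1 CPM, and the highest had 415 CPM.

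The core pluripotency genes shared by naive and primed cells were close to even too. Of 16 such genes, 0 were at least 2-fold lower in Stella-low cells, against 16.0% of all genes. Dppa2 and Foxd3 were the 2 at least 2-fold higher (12.5%, against 16.2%), and the list's median was 0.14. Foxd3 had few reads and fell below the count filter in each lane alone. Its log2 ratio was 1.81, but 0.12 from group medians and 0.49 with a pseudocount of 10 CPM. Pou5f1, which encodes Oct4, ranged from 38.1 to 169 CPM with a median of 102 CPM in Stella-low cells. In Stella-high cells it ranged from 3.13 to 152 CPM with a median of 93.7 CPM. Its log2 ratio was 0.44, and that of Sox2 was -0.19. Dppa2, a chromatin factor of pluripotent cells, had medians of 87.3 CPM in Stella-low and 36.4 CPM in Stella-high cells, a log2 ratio of 1.01. Counts of Pou5f1 and Nanog are uncertain in part because near-identical gene copies exist and the treatment of reads with several matches is not given in the sources used here.

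Primed epiblast genes differed in both directions, but the genes given values below were all lower by mean level in Stella-low cells. The members at least 2-fold higher are not named here. Of 14 described members of 20, 4 (28.6%, against 16.0% of all genes) were at least 2-fold lower in Stella-low cells and 3 (21.4%, against 16.2%) at least 2-fold higher, with a median of -0.33. Fgf5, the usual marker of the primed state, reached 0.110 CPM at most in Stella-low cells and 8.50 CPM in 1 Stella-high cell, and its median was 0 in both. Otx2, a homeobox factor that drives the move out of the naive state, ranged from 0 to 377 CPM around a median of 14.2 CPM in Stella-low cells, and from 0 to 178 CPM around 63.4 CPM in Stella-high cells. The groups overlapped throughout, and its log2 ratio was -0.22. Pou3f1 had a log2 ratio of -1.80 from means and 0 from group medians. Pim2, a survival kinase, was the member with quartile ranges apart, with medians of 0.189 and 19.8 CPM and a log2 ratio of -2.21, which was -3.78 without the 3 cells near zero and -1.59 without the Stella-high cell with the most Dppa3. Lef1, a WNT effector, had 0 reads in all 12 Stella-low cells and reads in 5 Stella-high cells. This makes it at least 433-fold lower against a floor of 3 reads over the group. The Stella-high sum rests on few cells, with a median of 0 CPM. Lef1 passed the count filter through Stella-high reads alone, so it could only count as lower in the share above.

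**Figure D3:**
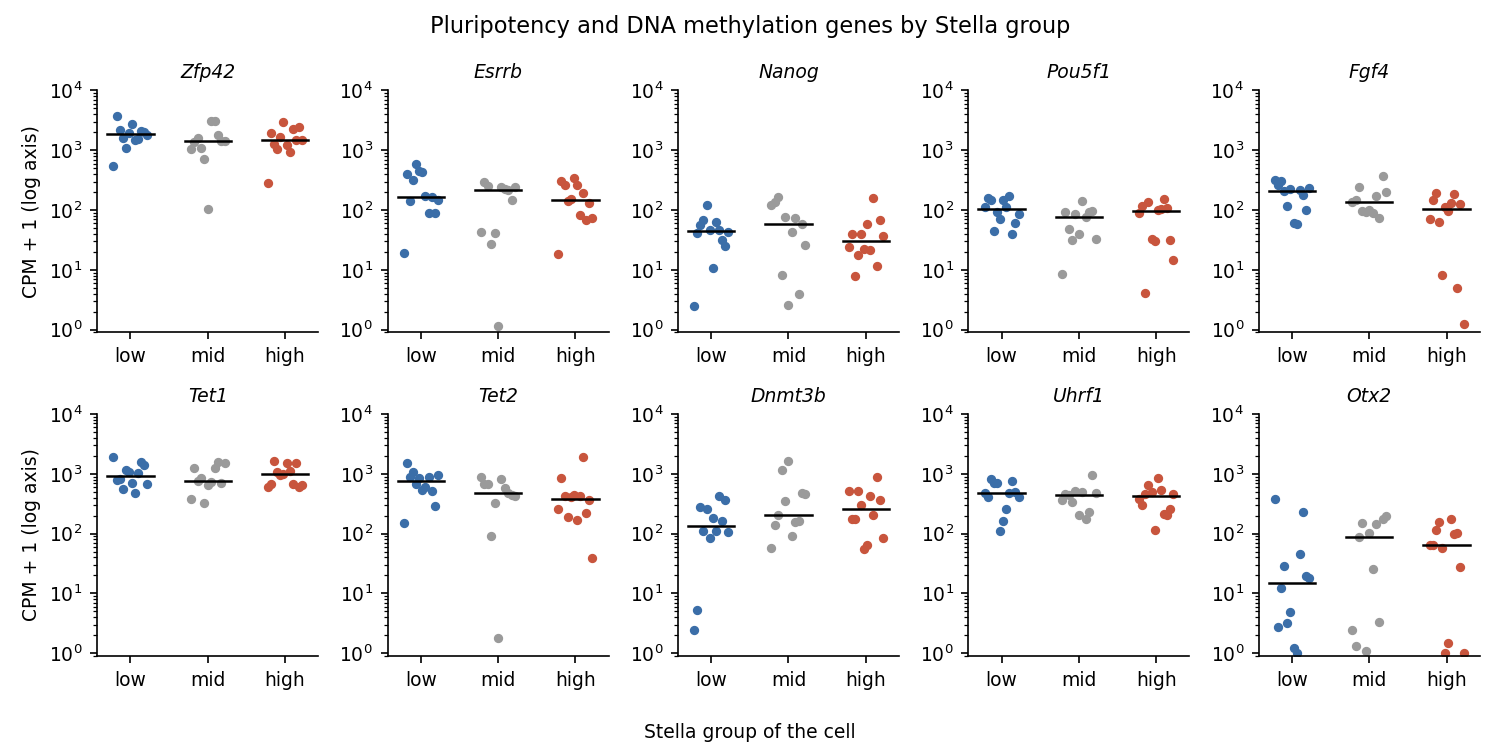
Levels (CPM + 1, log axis) of pluripotency and DNA methylation genes in 12 Stella-low, 11 middle and 12 Stella-high cells, ordered by Dppa3 from left to right within each group, with a black line at each group's median. The groups overlap in every panel; Fgf4 and Tet2 sit somewhat higher and Dnmt3b somewhat lower in Stella-low cells.

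Genes of DNA methylation, the process Stella is best known to act on, were near even between the groups. Of 15 described genes of methylation and of the H3K9me2 mark that Stella binds, 1, Tet3, was at least 2-fold lower in Stella-low cells (6.67%, against 16.0% of all genes). At least 2-fold higher were 0 (against 16.2%), and the median was 0.00. Uhrf1, the factor that recruits the maintenance methyltransferase, ranged from 112 to 834 CPM around a median of 475 CPM in Stella-low cells, and from 116 to 861 CPM around 419 CPM in Stella-high cells, a log2 ratio of 0.23. Dnmt1, that methyltransferase, had a log2 ratio of 0.15, and Tet1, which oxidises methylcytosine, of 0.00. The most uneven abundant members were Dnmt3b and Tet2, and neither passed 2-fold.

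Dnmt3b, a de novo methyltransferase, ranged from 1.47 to 418 CPM with a median of 136 CPM in Stella-low cells, and from 54.5 to 870 CPM with a median of 254 CPM in Stella-high cells, a log2 ratio of -0.85. Dnmt3a and Dnmt3l had log2 ratios of -0.44 and 0.24. Tet2 ranged from 152 to 1499 CPM with a median of 763 CPM in Stella-low cells, and from 38.0 to 1929 CPM with a median of 386 CPM in Stella-high cells, a log2 ratio of 0.64. For Tet2, 10 of 12 Stella-low cells lay above the Stella-high median. Tet3 rests on 1 Stella-high cell with 131 CPM, and its medians were 0.639 and 0.058 CPM.

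Gdf3 and Nanog, the genes on either side of Dppa3 on mouse chromosome 6, did not share its difference. In the RefSeq annotation of assembly GRCm38.p6, used here for gene order only, Dppa3 stands between Gdf3 and Nanog, followed by Slc2a3 and Foxj2. Gdf3, a TGF-beta family ligand, ranged from 4.24 to 461 CPM around 226 CPM in Stella-low cells and from 62.1 to 428 CPM around 218 CPM in Stella-high cells, a log2 ratio of 0.13. Nanog, the naive homeobox factor on the other side, ranged from 1.47 to 121 CPM around 43.5 CPM and from 6.89 to 156 CPM around 28.9 CPM, a log2 ratio of 0.15. Over the 35 cells, Spearman's rho with Dppa3 was -0.01 for Gdf3 and -0.13 for Nanog, while Nanog and Gdf3 had 0.31 with each other. Among the neighbours reported here, Slc2a3 was at least 2-fold lower and Foxj2 at least 2-fold higher in Stella-low cells. Foxj2 had medians under 1 CPM in both groups.

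The glucose transporter genes Slc2a1 and Slc2a3 were at least 2-fold lower in the 12 Stella-low cells, but not with 17 cells on each side. Slc2a1, which encodes the basal glucose transporter GLUT1, ranged from 11.3 to 245 CPM around a median of 71.7 CPM in Stella-low cells, and from 61.3 to 643 CPM around 399.6 CPM in Stella-high cells. No Stella-low cell reached the Stella-high median, and 8 of 12 Stella-high cells lay above the highest Stella-low cell. The log2 ratio was -1.85, with a mean 3.605-fold higher in Stella-high cells. The 12 cells held 8076 reads of Slc2a1 in Stella-low (exact Poisson 95% interval 7901 to 8254) and 26192 in Stella-high (25876 to 26511). Such intervals cover counting error only, and without molecular identifiers reads are not independent molecules; the spread over cells was far wider.

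Slc2a3, the neighbour of Nanog, encodes the high-affinity transporter GLUT3. It ranged from 45.9 to 785 CPM around 186 CPM in Stella-low cells, and from 3.13 to 1054 CPM around 510.2 CPM in Stella-high cells, a log2 ratio of -1.09. One Stella-low cell exceeded the Stella-high median. The middle cells did not lie between the groups for Slc2a3: their median was 563 CPM. Within them, the rank correlation with Dppa3 was -0.42 for Slc2a3 and -0.45 for Slc2a1, opposite in sign to the 35 cells together, where it was 0.31 and 0.56. With 17 cells on each side, the log2 ratio was -0.09 for Slc2a3 and -0.92 for Slc2a1, and without the 3 cells near zero that of Slc2a3 was -0.88.

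Slc2a1 and Slc2a3 belong to a list of glycolysis and hypoxia genes. Of 21 described genes, 7 (33.3%, against 16.0% of all genes) were at least 2-fold lower in Stella-low cells and 1 at least 2-fold higher, 17 had a negative log2 ratio, and the median was -0.35. Without the 3 cells near zero, 6 were at least 2-fold lower. With 17 cells on each side, 0 of 22 described members were at least 2-fold lower and 2 were at least 2-fold higher. The summed list had a mean of 8771 CPM in Stella-low, 12188 CPM in middle and 10787 CPM in Stella-high cells, so the middle cells did not lie between the groups. Besides the transporters, the members at least 2-fold lower were Bnip3, Aldoc, Ero1l, Pfkm and Ldhb. Bnip3, a mitochondrial protein induced by hypoxia, ranged from 0.282 to 148 CPM around 11.7 CPM in Stella-low cells and from 7.40 to 604 CPM around 153 CPM in Stella-high cells, a log2 ratio of -2.36. Its middle cells had a median of 212 CPM, and with 17 cells a side the log2 ratio was -0.33.

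Aldoc, an aldolase, and Ero1l, an oxidase of the endoplasmic reticulum, had log2 ratios of -4.90 and -3.06 with medians of 2.21 and 6.73 CPM in Stella-high cells, so that a few cells carried the difference. Pfkm, a phosphofructokinase of glycolysis, had medians of 0.226 and 15.3 CPM and a log2 ratio of -1.21. Ldhb, a lactate dehydrogenase subunit, had medians of 159 and 239 CPM and a log2 ratio of -1.08. Ldha, the lactate dehydrogenase subunit of anaerobic glycolysis, had medians of 581 and 794 CPM, a log2 ratio of -0.60. Gapdh and Pgk1, enzymes of the lower pathway, had log2 ratios of 0.03 and -0.04. Gapdh ranged from 1171 to 1843 CPM in Stella-low cells and from 1094 to 2145 CPM in Stella-high cells.

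Gpx4, Prdx6, Gstm5, Gstm2 and Cat were named after their values were seen, and no gene list or count stands behind them. Gpx4, the glutathione peroxidase that protects membrane lipids, ranged from 37.1 to 543 CPM around 215 CPM in Stella-low cells and from 339.6 to 1425 CPM around 614 CPM in Stella-high cells. All 12 Stella-high cells lay above the Stella-low median, and no Stella-low cell reached the Stella-high median. The log2 ratio was -1.48, from 20917 reads (20635 to 21202) against 56940 (56473 to 57410). With 17 cells on each side the log2 ratio of Gpx4 was -0.76, under 2-fold.

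Prdx6, a peroxiredoxin, had medians of 333 and 687 CPM with ranges from 101 to 1193 CPM and from 388 to 2291 CPM, a log2 ratio of -1.01, and -0.78 without the 3 cells near zero. The glutathione transferases Gstm5 and Gstm2 had log2 ratios of -2.09 and -1.70, with Stella-low medians of 0.155 and 3.75 CPM and Stella-high medians of 40.2 and 35.2 CPM. Catalase, encoded by Cat, went the other way, with medians of 174 CPM in Stella-low and 39.0 CPM in Stella-high cells and a log2 ratio of 1.15, and 0.98 without the 3 cells near zero. Among the middle cells the rank correlation with Dppa3 was -0.34 for Gpx4, -0.44 for Prdx6 and 0.67 for Cat, each opposite in sign to the difference between the outer groups. With 17 cells on each side the log2 ratio was -0.54 for Prdx6, -0.93 for Gstm2 and 0.60 for Cat, each under 2-fold. Gstm5 stayed past 2-fold there, at -1.46.

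**Figure D4:**
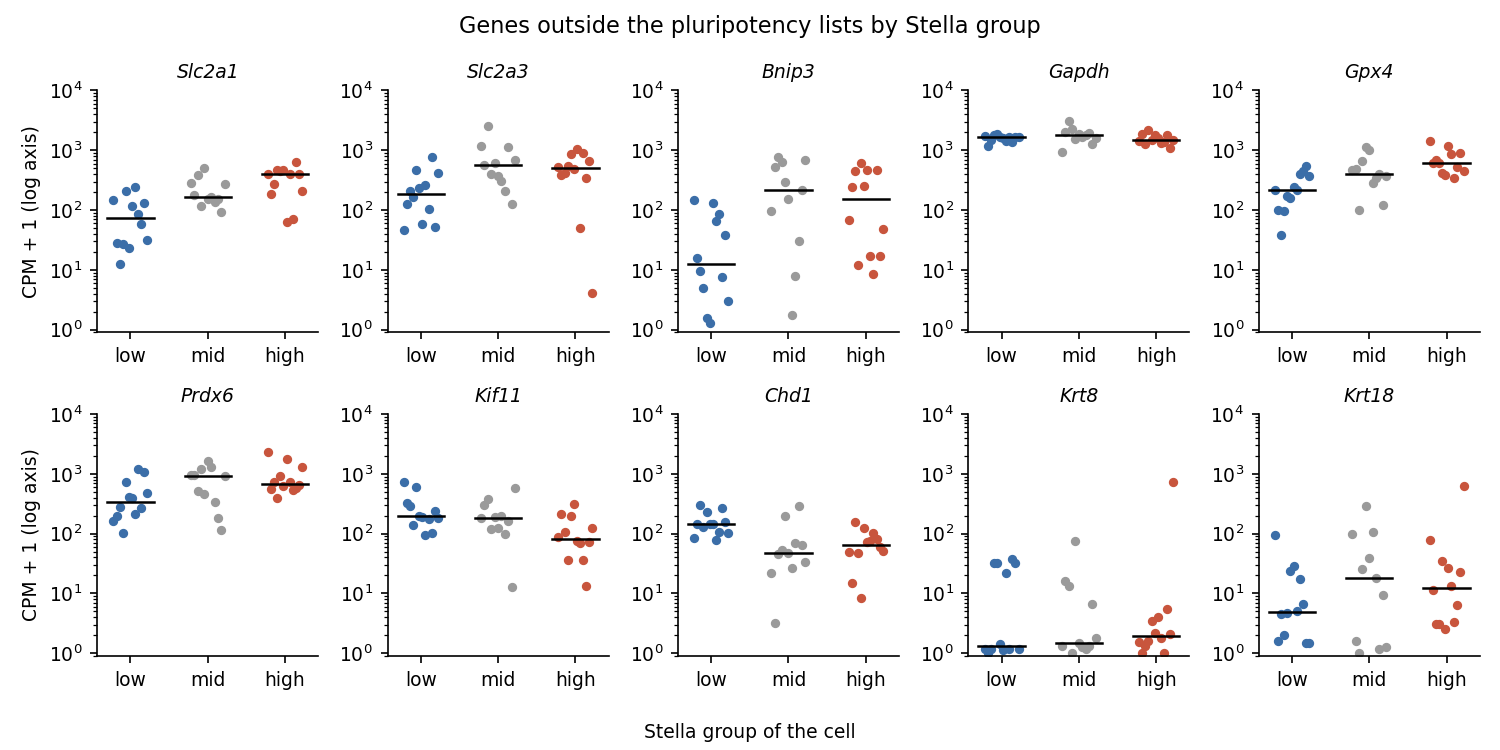
Levels (CPM + 1, log axis) of 10 genes in 12 Stella-low, 11 middle and 12 Stella-high cells, ordered by Dppa3 within each group, with a black line at each median. Slc2a1 and Gpx4 are lower and Chd1 and Kif11 higher in Stella-low cells, Gapdh is level, and 1 Stella-high cell holds most reads of Krt8 and Krt18.

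Other well counted genes came from many processes. Among those lower in Stella-low cells, Senp2, a SUMO protease, ranged from 5.37 to 164 CPM around 22.1 CPM in Stella-low cells and from 39.5 to 269 CPM around 137 CPM in Stella-high cells, a log2 ratio of -1.66. Alg13, a subunit of an early enzyme of N-glycosylation, had medians of 63.0 and 173 CPM and a log2 ratio of -1.28. These were among the genes that also followed Dppa3 in the middle cells, with rank correlations of 0.54 and 0.56 over 11 cells. Cbx7, a subunit of Polycomb repressive complex 1 that is abundant in ES cells, had medians of 31.4 and 109.6 CPM and a log2 ratio of -1.39, with 0.35 in the middle cells. Rab27a, a GTPase of vesicle transport, had medians of 0.793 and 96.1 CPM and a log2 ratio of -3.75, but its middle cells had a median of 88.7 CPM and a rank correlation of -0.62.

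Among those higher in Stella-low cells, Chd1, a chromatin remodeller of open chromatin in ES cells, ranged from 78.1 to 305 CPM around 143 CPM, against 7.34 to 154 CPM around 64.4 CPM in Stella-high cells. All 12 Stella-low cells lay above the Stella-high median, and the log2 ratio was 1.17. Its middle cells had a median of 46.9 CPM, below both groups. With 17 cells on each side the log2 ratio of Chd1 was 0.745, under 2-fold. Terf2, which protects telomere ends, had medians of 25.6 and 1.76 CPM and a log2 ratio of 3.52. Mcfd2, a cargo receptor of the secretory pathway, had medians of 61.5 and 1.02 CPM and a log2 ratio of 3.99, with 9 of 12 Stella-low cells above the highest Stella-high cell. The 3 cells with almost no Dppa3 did not lead this difference, since Mcfd2 was 0, 0.469 and 136 CPM in them. The size of the Mcfd2 difference depended on the cells chosen. With Gata6 required to be under 1 CPM, which exchanges a Stella-high cell for a middle cell, the log2 ratio was 2.08. That fall reflects the Mcfd2 level of the middle cell that entered. With 17 cells on each side it was 1.88.

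The largest ratios with quartile ranges apart belonged to genes seen in some cells of 1 group and nearly absent from the other. Zfp574, a zinc finger protein, had the largest ratio upwards in Stella-low cells: it ranged from 0.157 to 176 CPM around 21.7 CPM in Stella-low cells and from 0 to 5.45 CPM around 0.063 CPM in Stella-high cells, a log2 ratio of 4.93. In the other direction, Traf2, an adaptor of tumour necrosis factor receptors, had a log2 ratio of -4.78, with 1 Stella-low and 6 Stella-high cells at 1 CPM or more. Of the 12 genes with the lowest ratios, Nrk and Cblb reached 1 CPM in 4 of 12 Stella-high cells each, with medians of 0.341 and 0.157 CPM. Values of this kind describe a few cells rather than a level shared by a group.

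Few cell cycle genes passed 2-fold. Of 22 G2-M genes, 0 were at least 2-fold lower and 2, Kif11 and Aurkb, at least 2-fold higher (9.09%, against 16.2% of all genes), with a median of 0.28. Without the 3 cells near zero, 0 of 22 were past 2-fold and the median was 0.09. Kif11, the motor that pushes spindle poles apart, ranged from 94.8 to 718 CPM around 193 CPM in Stella-low cells and from 12.4 to 308 CPM around 81.4 CPM in Stella-high cells, a log2 ratio of 1.28. All 12 Stella-low cells lay above the Stella-high median. The 3 cells near zero had 292, 331 and 718 CPM, and without them the log2 ratio was 0.93, under 2-fold; it was 0.81 with Gata6 under 1 CPM. Aurkb, a mitotic kinase, went from 1.04 to 0.59 in the same way. Of 22 G1-S genes, 1 was at least 2-fold lower (4.55%, against 16.0% of all genes) and 0 higher, with a median of 0.15.

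Germline genes, among which Dppa3 itself is often counted, were detected in scattered cells. Of 17 described members of 21, 4 were at least 2-fold lower in Stella-low cells (23.5%, against 16.0% of all genes). At least 2-fold higher were 3 (17.6%, against 16.2%). The list's median was -0.52, and none had quartile ranges apart. With 17 cells on each side, 6 were lower and 3 higher, and the median was 0.09. Tfap2c, a factor of primordial germ cells, had medians of 0.167 CPM in Stella-low and 71.7 CPM in Stella-high cells, with 5 and 11 of 12 cells at 1 CPM or more and a log2 ratio of -1.79. Prdm1, which encodes Blimp1 of the same germ cell program, went the other way, with medians of 20.0 and 0.136 CPM and a log2 ratio of 2.43. The 3 cells near zero had 63.5, 128 and 215 CPM of Prdm1, and without them the log2 ratio was 1.496; it was 1.27 with Gata6 under 1 CPM. Sycp1, a meiotic protein, reached 1 CPM in 1 Stella-low and 7 Stella-high cells. Both directions thus occurred within the germ cell genes.

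Imprinted genes, whose control regions Stella is known to protect, were as mixed with 12 cells on each side. Of 21 described genes of 31, 4 were at least 2-fold lower (19.0%, against 16.0% of all genes). At least 2-fold higher were 5 (23.8%, against 16.2%), and the median was -0.10. With 17 cells on each side, 1 of 23 described genes was lower and 5 were higher, with a median of 0.34. H19 had 0 reads in all 12 Stella-low cells and 3645 reads in 7 Stella-high cells, with a Stella-high median of 0.140 CPM. It was at least 1235-fold lower against a floor of 3 reads over the group. With reads in Stella-high cells alone, H19 could only count as lower. Meg3, a noncoding RNA of another imprinted cluster, was at least 2-fold higher in Stella-low cells, with medians of 81.9 and 38.5 CPM and a log2 ratio of 1.10. Without the 3 cells near zero the log2 ratio of Meg3 was 0.50, under 2-fold. Mest, an imprinted gene of mesoderm, had medians of 9.82 and 92.5 CPM and lay just past 2-fold lower, but not without the 3 cells near zero, at -0.84.

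Signalling lists were short, and their shares past 2-fold fell on both sides of those of all genes, 16.0% lower and 16.2% higher. For LIF-STAT3, the pathway that LIF activates, 2 of 14 genes (14.3%), Socs3 and Il6st, were at least 2-fold lower and 0 higher, with a median of 0.09. Socs3, the feedback inhibitor of the pathway, had quartile ranges apart at low levels, with medians of 1.74 and 8.16 CPM. Its log2 ratio was -1.80, and -0.97 with Gata6 under 1 CPM. Lifr, the LIF receptor, had medians of 201 and 64.8 CPM and a log2 ratio of 0.96, and Stat3 a log2 ratio of 0.73. In the FGF-ERK list 4 of 16 were lower (25.0%) and 2 higher (12.5%), and in the Nodal list 3 of 11 (27.3%) and 2 (18.2%). The BMP list had 2 of 10 lower (20.0%) and 1 higher (10.0%), and the WNT list 1 of 8 each way (12.5%). Of 14 immediate early genes 4 were lower and 4 higher (28.6% each way). Their direction depended on single cells: Fos had a log2 ratio of 1.68 from means and -0.025 from medians. Ribosomal protein genes and housekeeping genes had 0 of 30 and 0 of 12 members past 2-fold.

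**Figure D5:**
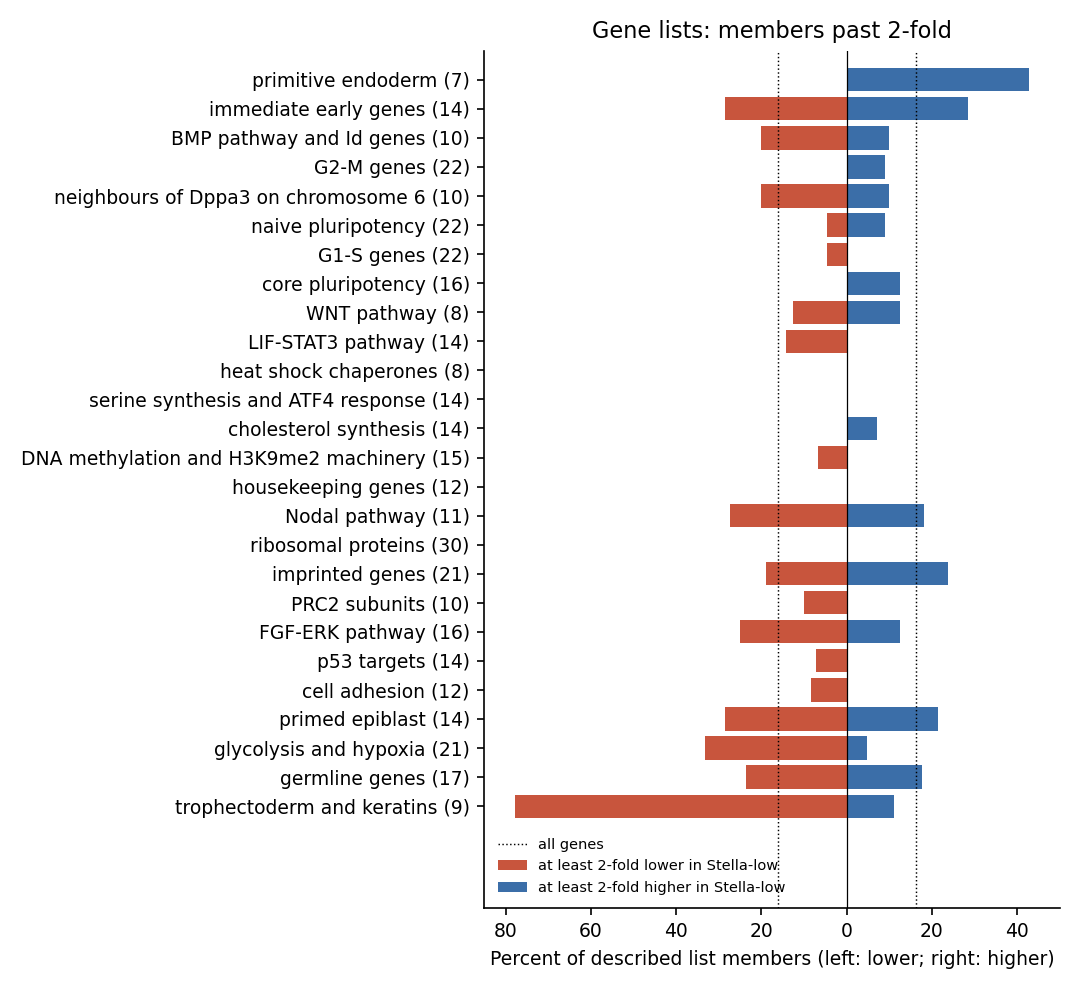
Percent of the described members of each gene list (number in brackets, lists with at least 5) that were at least 2-fold lower (left) or higher (right) in Stella-low cells, ordered by the list's median log2 ratio. Dotted lines mark all genes, 16.0% and 16.2%; the trophectoderm and keratin list lies farthest to the left, and its keratins rest on 1 Stella-high cell.

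Markers of other cell types were present to different extents. Of the trophectoderm and keratin list, 7 of 9 described genes were at least 2-fold lower in Stella-low cells (77.8%, against 16.0% of all genes). At least 2-fold higher was 1 (11.1%, against 16.2%), and the median was -2.12. One cell carried the keratins of this list: the Stella-high cell with the most Dppa3, at 1026 CPM, had 739 CPM of Krt8, 621 of Krt18, 205 of Krt19 and 221 of Krt7, all keratins of simple epithelia. In the other 11 Stella-high cells Krt8 reached 4.57 CPM at most. Without that cell, Krt8 was higher in Stella-low cells, with a log2 ratio of 2.56. Krt19 and Krt7 then fell below the count filter, so their place among the lower genes rested on that cell. Of the 7 members still described, 3 (42.9%) were at least 2-fold lower and 2 higher, with a median of -0.94. Those 3 did not rest on that cell, but Hand1 and Eomes rested on few others. Hand1 had 0 reads in that cell and reached 1 CPM in 1 other Stella-high cell. It also had 0 reads in all Stella-low cells. Hand1 thus passed the count filter through Stella-high reads alone and could only count as lower. The shares of 77.8% and 42.9% include such members, which limits their comparison with all genes. Eomes had a log2 ratio of -1.34 without the Stella-high cell with the most Dppa3. In the other 11 Stella-high cells the highest value of Eomes was 61.7 CPM, and its mean and median were 6.05 and 0 CPM. Tfap2c had a log2 ratio of -1.56 without that cell, with a median of 65.0 CPM in the other 11. The Stella-high cell with the most Dppa3 had low Pou5f1, 13.6 CPM, and Slc2a3, 3.13 CPM, but 1458 CPM of Zfp42 and 0 reads of Cdx2, the defining factor of trophectoderm. The summed list ranged from 0.782 to 238 CPM in Stella-low cells and from 9.39 to 2040.5 CPM in Stella-high cells.

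Of 7 described primitive endoderm genes, 0 were at least 2-fold lower and 3 (42.9%, against 16.2% of all genes), Lama1, F3 and Col4a1, at least 2-fold higher in Stella-low cells, with a median of 0.49. Without the 3 cells near zero, 1 was lower and 2 were higher. Lama1, a laminin chain, had medians of 18.6 and 4.87 CPM and a log2 ratio of 1.96, against a median of 2052 CPM in the Gata6-positive cells. Foxa2 had 0 reads in all 24 cells. The summed list ranged from 46.3 to 2034 CPM in Stella-low cells and from 248 to 557 CPM in Stella-high cells, around medians of 371 and 480 CPM, while the Gata6-positive cells had 15868 CPM or more. Of the neuroectoderm list, 3 of 9 genes were described, 0 lower and 1 higher by 2-fold. Its sum ranged from 0.163 to 258 CPM around a median of 122 CPM in Stella-low cells, and from 0.470 to 467 CPM around 21.7 CPM in Stella-high cells. Most of that sum was Tubb3, a neuronal tubulin, with medians of 118 and 16.8 CPM and a log2 ratio of 0.34. Of the fibroblast list, 2 of 9 genes were described, 1 lower and 0 higher by 2-fold. Its sum ranged from 22.0 to 571 CPM around 102 CPM in Stella-low cells, and from 16.1 to 538 CPM around 139 CPM in Stella-high cells. Most of it was Fn1, which encodes fibronectin, with a log2 ratio of -0.04. Of the mesendoderm list, 2 of 9 genes were described, 1 lower and 1 higher by 2-fold, and its sum reached 53.9 CPM in Stella-low and 61.7 CPM in Stella-high cells. The part of these markers in the other differences was not tested. Genes of the 2-cell-like state, a rare state of ES cells with transcripts of the early embryo, summed to 0.156 CPM at most in the 24 cells.

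Genes most like Dppa3 over the 35 cells were sought among the 7120 genes that averaged 100 or more reads, by Spearman's rho of log2(CPM + 1). These cells include those that defined the groups, and no separate cultures are named for them. Quartiles of rho over all 7120 genes were -0.13 and 0.13. Itpr3, a calcium release channel, came first with 0.68. It had at least 1 CPM in 1 of 12 Stella-low and 10 of 12 Stella-high cells, with medians of 0 and 23.7 CPM. Senp2, Gpbp1l1, Gstm5, Gpx4, Anp32b, Alg13, Slc2a1, Cox18 and Plp2 followed, down to 0.54. Among the middle cells alone, the rho of these 10 genes ranged from -0.45 for Slc2a1 to 0.56 for Alg13. At the other end, Zfp574 had -0.63, followed by Sfrp1, Capsl, Mlec, Arhgap8, Pitpnc1, Kif11, Ints6, Taf1b and Slc44a1. Mlec, a lectin of the endoplasmic reticulum, kept a strong negative rank correlation in the middle cells, -0.74, and had medians of 64.7 CPM in Stella-low and 9.14 CPM in Stella-high cells.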

How the data were processed

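Single J1 ES cells were captured and their cDNA amplified on a Fluidigm C1 chip, per the labels' protocols. The deposited table holds raw read counts per gene for each cell and lane, made, per the submitters' processing notes, on build mm9 with tools listed as Subread 1.4.5-p1, featureCounts and STAR 2.3.1z12. The annotation, the strand setting and the handling of multi-mapping reads are not given in the sources used here, so overlapping genes and gene copies may share reads. Lanes of a cell were summed, and counts were scaled to CPM by the cell's total. The 12 lowest and 12 highest cells by Dppa3, with Gata6 under 20 CPM, were compared over genes with a mean count of at least 10, with 1 CPM added to each group mean. Members and gene lists were chosen with earlier results of these data known. Named genes were the 12 largest ratios each way among genes with quartile ranges apart and 10 CPM in the higher group, list members with quartile ranges apart, 26 preset genes and the 10 genes most and least like Dppa3; further list members and well counted genes were named after their values were seen. The calculations were tested on simulated data. TMM scaling with edgeR 4.0.16 served as an alternative only. Scripts used Python 3.11.15, pandas 2.3.3 and scipy 1.17.1.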

Additional observations from a re-analysis of the deposited data

How the results depend on the processing

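No paired analysis was possible because no result comes from a test and the lanes of a cell were summed. The comparison was repeated under 19 other settings, 2 of them chosen after seeing the data. At least 2-fold lower and higher genes numbered 975 and 1024 with a mean count of at least 50, and 586 and 610 with a pseudocount of 10 CPM; 1075 were lower with means of log2 values. With 8 against 8 cells, 219 and 223 genes had quartile ranges apart, of which 112 and 124 were well counted. With 17 against 17 cells these were 9 and 17, and 6 and 9, and 8 and 9 genes were shared with the 81 and 68. Leaving out the highest cell of each group per gene gave 124 and 127, with 55 well counted higher genes. Leaving out the 3 Stella-low cells under 1 CPM of Dppa3 gave 124 higher genes, 73 of them well counted. Cells ranked on lane 1 and compared on lane 2 shared 44 and 38 genes. Of 3133 log2 ratios of 166 named genes, 14 changed sign from past 2-fold. With group medians, Btg2 was -2.12, Fos -0.025, Il6st 0.60 and Tet3 0.63. With means of log2 values, Btg2 was -0.43, Fos -0.15, Krt8 0.48 and Tet3 0.075. Il6st was 0.27 with 8 against 8 cells, and Nrk 0.80 with 17 against 17. Without the highest cell of each group, Krt8 was 2.303 and Tet3 0.11. Fos was -0.011 without the 3 cells near zero, and Krt8 2.56 without the Stella-high cell with the most Dppa3. The cause of these shifts was not tested. Of 494 list medians, 492 moved by less than the spread among the list's members. The ribosomal list was at -0.23 with TMM totals before ranking, and the keratin list at -0.05 with medians. The labels name no separate cultures, so spread between cultures was not analysed here.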

Other observations

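The 3 Stella-low cells with almost no Dppa3 (0, 0.156 and 0.188 CPM) held reads of the naive gene Zfp42 and the core gene Pou5f1. Their Zfp42 was 551, 2206 and 3770 CPM, and their Pou5f1 was 113, 148 and 160 CPM. The naive and core lists as wholes are not described for these cells. Nanog was as low as 1.47 CPM within the Stella-low group. Meg3, an imprinted noncoding RNA, was 166, 219 and 229 CPM in them, against a Stella-high median of 38.5 CPM. Phc1, a Polycomb gene near Dppa3, was 279, 528 and 741 CPM, against a Stella-high median of 232 CPM. S100a6, a calcium-binding protein, was 2.19, 10.1 and 22.6 CPM in the same cells, against a Stella-high median of 303 CPM, and Dnmt3b was 1.47, 4.38 and 276 CPM. These cells were singled out after their values were seen.

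Spp1, which encodes osteopontin, had medians of 882 CPM in Stella-low and 503 CPM in Stella-high cells, with ranges from 7.34 to 1947 CPM and from 73.1 to 951 CPM and a log2 ratio of 0.86. Zfp57, a zinc finger protein that guards imprints, had medians of 842 and 614 CPM and a log2 ratio of 0.75. Foxh1, a Nodal effector, and Id3, a BMP target, were lower in Stella-low cells, with medians of 40.1 and 116 CPM for Foxh1 and 13.3 and 41.6 CPM for Id3. In the middle cells the medians of Foxh1 and Id3 were 42.9 and 0.158 CPM.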
